A study of Rattus norvegicus with 15 samples.

Results

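The genes described here encode 7 hormones of the pituitary and the hypothalamus, read in RNA of a brain artery: growth hormone (Gh1), prolactin (Prl), proopiomelanocortin (Pomc), the glycoprotein hormone alpha subunit (Cga), the thyrotropin beta subunit (Tshb), vasopressin (Avp) and oxytocin (Oxt). They were chosen by name, as every probe set that the array's annotation assigns to 1 of these symbols. Each of the 7 genes had 1 probe set, which gave 7 of the 15923 probe sets on the array, and all 7 passed the filter on low signals. The vessel was the posterior cerebral artery, labelled ipsilateral in all groups, also in intact rats. It was taken from Sprague Dawley rats aged 7 weeks and weighing 300 to 350 g. In 3-vessel occlusion (3VO), both vertebral arteries were closed by electrocoagulation and the left common carotid artery was tied, which lowers the blood supply of the brain. The sham operation laid these vessels open and left them untouched, and intact rats, labelled as time 0, were not operated on. Arteries came from 5 groups of 3 arrays each: 3VO after 24 h, sham after 24 h, 3VO after 3 d, sham after 3 d, and intact. Operated rats received isoflurane and buprenorphine, and the vessels of all groups were filled with latex under papaverine before dissection. Each array carried RNA pooled from 8 rats, so an array gives the mean of a pool and no value of a single rat. The labels also speak of repeated hybridisation and leave unclear whether the 3 arrays of a group hold different pools, so a p-value here measures the spread between these arrays, which may be technical. Replicate numbers only name the arrays. Replicate 1 of the sham group at 3 d bears a sham title, whereas its treatment text describes the occlusion, and the 3 d differences, the 3 d list medians and the correlations of Gh1 are given with and without it.

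Somatotrophs, lactotrophs, corticotrophs, thyrotrophs and gonadotrophs of the anterior pituitary make growth hormone, prolactin, the adrenocorticotropin precursor proopiomelanocortin, and the glycoprotein hormones. Vasopressin and oxytocin are made by magnocellular neurons of the hypothalamus, whose axons end in the posterior pituitary. In life the pituitary lies beneath the hypothalamus, close to the arterial circle at the base of the brain from which the posterior cerebral artery leaves.

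All values are the authors' array signal on a linear scale, with medians between 2553.4 and 2938.4 over the 15 arrays. Between 1.36% and 5.27% of the probe sets of an array were below 100. The arrays limit the precision through their number, 3 in each group. Markers of arterial smooth muscle were bright on every array: Acta2, smooth muscle actin, had signals between 26698.3 and 84639.4, and Myh11, smooth muscle myosin, between 43606.4 and 116437. The pools held more than the vessel wall. The synaptic gene Snap25 had signals from 16616.5 to 124806, and choroid plexus markers stood 3.54 (intact replicate 2) and 3.43 (sham replicate 3 at 3 d) above the other arrays as a median on the log2 scale. In RNA of a whole pool, fewer cells of a type and less RNA per cell cannot be told apart.

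**Figure D1:**
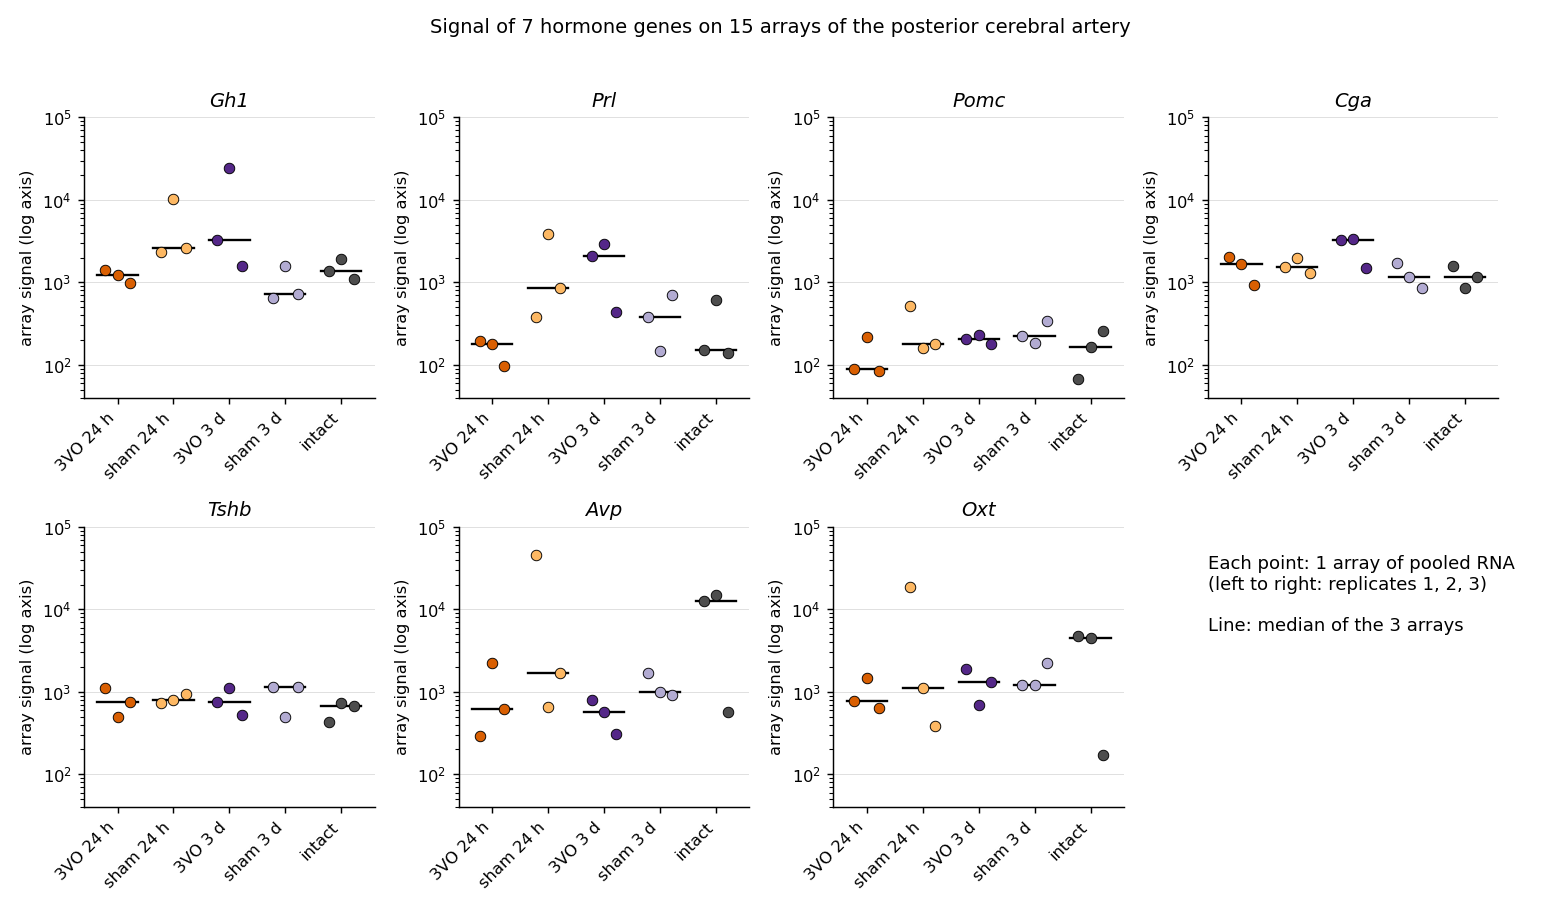
Signal of each hormone gene on each array, on a log axis, with 1 point for each array and a line at the median of the 3 arrays of a group. Gh1 reached 24590.8 on 1 array of 3VO at 3 d and Avp 46151.6 on 1 sham array at 24 h, whereas Tshb stayed between 428.9 and 1149.8 on all 15 arrays.

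Growth hormone, the product of the somatotrophs, had 1 array in each of 2 groups far above the rest. Gh1 gave 1418.7, 1241.7 and 974.8 after 3VO at 24 h, against 2360.5, 10117.9 and 2616.5 after sham surgery at 24 h. At 3 d it gave 3294.3, 24590.8 and 1568.7 after 3VO, against 643.9, 1580.7 and 725.9 after sham surgery. In intact arteries it gave 1381.7, 1927.6 and 1099.8. At 24 h every 3VO array was below every sham array, and at 3 d the lowest 3VO array lay just below the highest sham array. By group median, Gh1 stood at 3294.3 after 3VO at 3 d, 2616.5 after sham at 24 h, 1381.7 in intact arteries, 1241.7 after 3VO at 24 h and 725.9 after sham at 3 d. Among neighbours in that order, the arrays overlapped except between sham at 24 h and intact.

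Prolactin, the product of the lactotrophs and a relative of growth hormone in the same hormone family, was high on the same 2 arrays and on 1 more. Prl gave 193, 178 and 97 after 3VO at 24 h, against 376.9, 3871.2 and 847.8 after sham surgery at 24 h. After 3 d Prl gave 2087.6, 2915.4 and 436.9 after 3VO, against 377.9, 148 and 704.9 after sham surgery. In intact arteries it gave 149, 617.9 and 139. The 3VO arrays at 24 h lay below all sham arrays of that time, and at 3 d the groups overlapped through replicate 3 of 3VO and replicate 3 of sham. The Prl signals after 3VO at 24 h were dim, above only 4.88% to 8.13% of the probe sets of their arrays. Those of intact replicates 1 and 3 were above 7.25% and 6.88%. How far such Prl signals lay above background was not tested. The group medians ran from 2087.6 after 3VO at 3 d through 847.8 after sham at 24 h, 377.9 after sham at 3 d and 178 after 3VO at 24 h to 149 in intact arteries, and every pair of neighbours overlapped. Rats have a large family of prolactin-like genes, and the probe sequences were not used here, so cross-hybridisation among them was not tested.

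The Prl promoter is shown because Prl and Gh1 were high on the same arrays, and the pituitary factor POU1F1 is known to activate both genes. The sequence covers the 250 bases before the RefSeq start of Prl on the minus strand of GRCr8, at chr17:38298218-38298467. Capitals mark the match to the POU1F1-type motif TATNCAT, searched on both strands and found on the reverse one. It starts 24 bases before the transcript start (position -24), and 8.73% of 33469 rat promoters of that length hold this motif. A Gh1 promoter was not used here.
Prl: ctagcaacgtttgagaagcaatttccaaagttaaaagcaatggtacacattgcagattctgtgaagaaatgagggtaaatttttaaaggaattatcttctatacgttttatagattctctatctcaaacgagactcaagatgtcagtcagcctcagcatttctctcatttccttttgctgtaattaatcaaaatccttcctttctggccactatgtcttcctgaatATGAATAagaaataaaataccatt

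Avp and Oxt, the hormones of the magnocellular neurons, were high together on 3 other arrays. Avp gave 293.9, 2257.5 and 626.9 after 3VO at 24 h, against 46151.6, 645.9 and 1688.6 after sham surgery at 24 h. After 3 d the Avp signals were 789.8, 566.9 and 309.9 after 3VO, against 1697.6, 995.8 and 904.8 after sham surgery. In intact arteries it gave 12584.5, 15090.2 and 567.9. Sham replicate 1 at 24 h and intact replicates 1 and 2 stood above all other arrays, on which Avp did not exceed 2257.5. At 3 d every 3VO array was below every sham array, including the sham array with the conflicting label (1697.6). The Avp signals after 3VO at 3 d were above only 18.4%, 16.2% and 10.5% of the probe sets of their arrays. How far they lay above background was not tested. The group medians were 12584.5 in intact arteries, 1688.6 after sham at 24 h, 995.8 after sham at 3 d, 626.9 after 3VO at 24 h and 566.9 after 3VO at 3 d, with overlap between all neighbours.

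Oxt gave 769.8, 1473.7 and 633.9 after 3VO at 24 h, against 18614.8, 1104.8 and 385.9 after sham surgery at 24 h. At 3 d it gave 1887.6, 684.9 and 1299.7 after 3VO, against 1201.7, 1219.8 and 2244.6 after sham surgery. In intact arteries it gave 4740.1, 4505.2 and 173. The 3 highest arrays were the same as for Avp, and intact replicate 3 was the lowest of all 15. Oxt group medians were 4505.2 in intact arteries, 1299.7 after 3VO at 3 d, 1219.8 after sham at 3 d, 1104.8 after sham at 24 h and 769.8 after 3VO at 24 h, and all neighbours overlapped.

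Avp and Oxt lie next to each other on rat chromosome 3 and are transcribed towards each other, and their promoters are shown because both genes were high on the same arrays. Each sequence covers the 250 bases before the RefSeq start in GRCr8, for Avp at chr3:138248523-138248772 on the minus strand and for Oxt at chr3:138235504-138235753 on the plus strand. Capitals in Avp mark the E-box CACGTG at position -165, a motif bound by basic helix-loop-helix factors that 5.59% of the 33469 promoters hold. Capitals in Oxt mark the nuclear receptor half-site GGTCA, 1 on the strand shown and 4 on the other. Of all promoters, 35.4% hold at least 1 such half-site and 0.0508% hold 5 or more. Both strands were searched and no match overlapped another. Avp held no GGTCA or TATNCAT, and Oxt no CACGTG or TATNCAT, in this window.
Avp: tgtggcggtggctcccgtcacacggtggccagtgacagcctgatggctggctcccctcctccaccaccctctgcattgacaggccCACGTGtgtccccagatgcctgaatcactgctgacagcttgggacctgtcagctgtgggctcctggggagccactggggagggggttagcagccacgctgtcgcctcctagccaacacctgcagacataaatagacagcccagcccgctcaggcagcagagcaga
Oxt: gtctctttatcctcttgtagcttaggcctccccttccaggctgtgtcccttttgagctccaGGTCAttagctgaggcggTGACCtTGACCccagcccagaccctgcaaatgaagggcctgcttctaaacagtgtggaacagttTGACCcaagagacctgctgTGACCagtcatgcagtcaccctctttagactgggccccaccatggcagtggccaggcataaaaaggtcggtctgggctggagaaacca

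The 3 remaining pituitary genes had narrower ranges. Cga, the alpha subunit shared by thyrotropin and the gonadotropins, gave 2030.6, 1661.6 and 928.8 after 3VO at 24 h, against 1518.7, 1987.6 and 1284.7 after sham surgery at 24 h. At 3 d Cga gave 3217.4, 3344.3 and 1512.7 after 3VO, against 1708.6, 1160.8 and 859.8 after sham surgery, and intact arteries gave 1558.7, 856.8 and 1163.7. Its 2 highest arrays were replicates 1 and 2 of 3VO at 3 d, where Prl was 2087.6 and 2915.4. The group medians of Cga were 3217.4 after 3VO at 3 d, 1661.6 after 3VO at 24 h, 1518.7 after sham at 24 h, 1163.7 in intact arteries and 1160.8 after sham at 3 d, with overlap between neighbours throughout.

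Tshb, which pairs with the alpha subunit to form thyrotropin, gave 1126.8, 501.9 and 756.8 after 3VO at 24 h, against 724.8, 789.8 and 946.8 after sham surgery at 24 h. After 3 d Tshb gave 745.9, 1117.8 and 527.9 after 3VO, against 1149.8, 499.9 and 1144.8 after sham surgery, and intact arteries gave 428.9, 736.9 and 667.9. No array stood apart, and the groups overlapped in all comparisons. The highest Tshb signal was 1.54 times the median of the 15 arrays. Tshb lay above 13.9% to 28.2% of the probe sets of an array, and how far that was above background was not tested.

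Pomc, the precursor of adrenocorticotropin and other melanocortin peptides, was dim. It gave 90, 217 and 84 after 3VO at 24 h, against 521.9, 161 and 177 after sham surgery at 24 h. The 3 d signals of Pomc were 205, 227 and 179 after 3VO, against 225, 185 and 341.9 after sham surgery, and intact arteries gave 68, 166 and 259.9. Sham replicate 1 at 24 h, the array highest in Avp and Oxt, was also the highest in Pomc. No Pomc signal reached 1000 and 3 were below 100, and detection calls were not used here, so how far these signals lay above background was not tested.

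**Figure D2:**
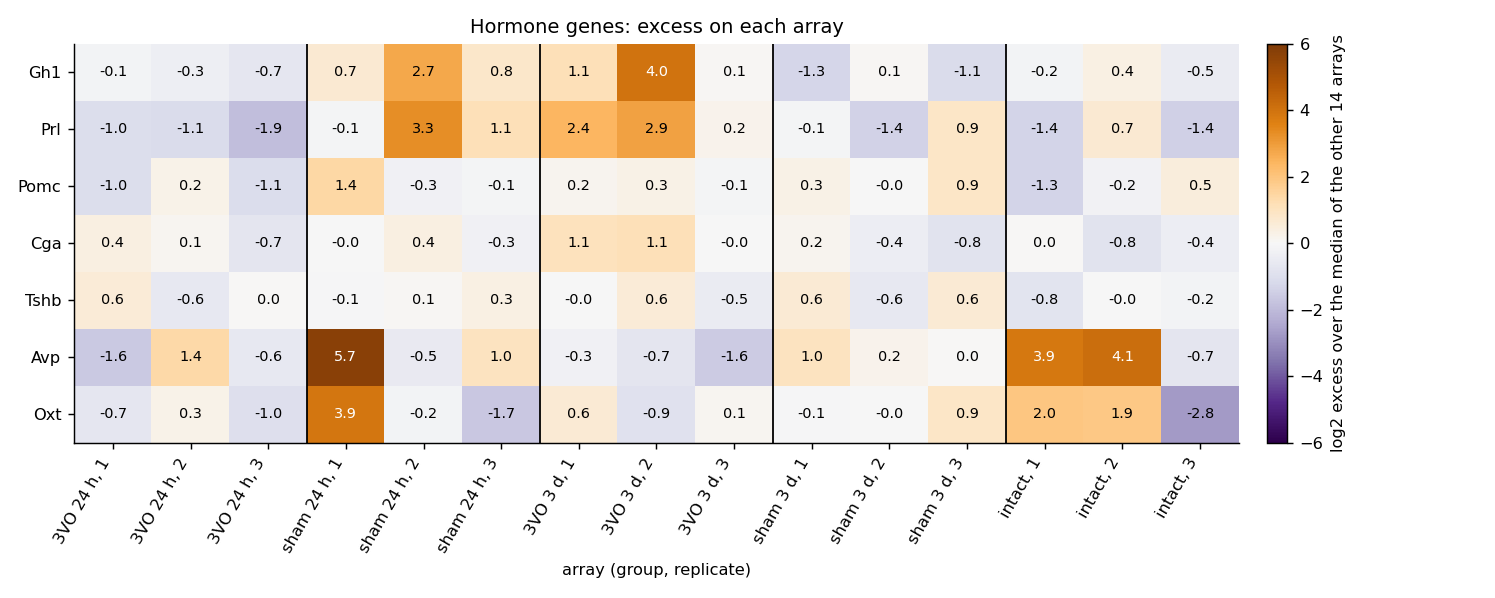
Log2 excess of each hormone gene on each array over the median of the other 14 arrays, with arrays in columns and genes in rows. Among the orange cells are Gh1 and Prl on sham replicate 2 at 24 h and 3VO replicate 2 at 3 d. Others are Avp and Oxt on sham replicate 1 at 24 h and intact replicates 1 and 2. Prl on 3VO replicate 1 at 3 d is a further one, with 2.42 against 1.13 for Gh1.

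The size of these single arrays was set against all probe sets by the log2 excess, the log2(signal + 16) of an array minus that of the median of the other 14 arrays. Among 15737 probe sets, Avp had the highest excess of all on sham replicate 1 at 24 h (5.74) and Oxt the second highest (3.92). Prl ranked first on sham replicate 2 at 24 h (3.30), where Gh1 ranked 9 (2.75). Gh1 ranked first on replicate 2 of 3VO at 3 d (4.03), where Prl ranked 5 (2.90). On intact replicates 2 and 1, Avp ranked 13 (4.13) and 14 (3.87), and Oxt ranked 250 (1.88) and 186 (1.95). Prl on replicate 1 of 3VO at 3 d ranked 72 (2.42), with Gh1 at rank 629 (1.13). Pomc on sham replicate 1 at 24 h ranked 157 (1.44). These ranks describe single arrays and carry no test. Over all arrays, 0.0445% of probe sets had a wider log2 range than Avp, 0.108% than Oxt, 0.489% than Gh1 and 0.591% than Prl, against 20.1% for Pomc, 31.3% for Cga and 45.7% for Tshb.

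**Figure D3:**
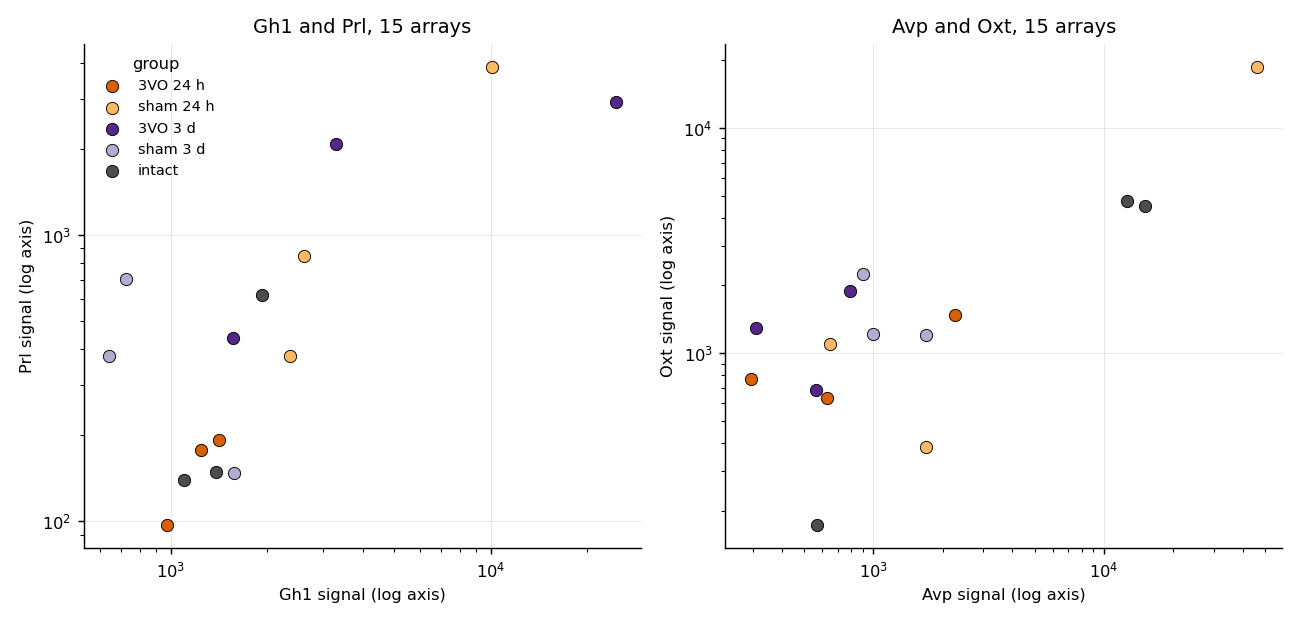
Signals of Prl against Gh1 and of Oxt against Avp on the 15 arrays, both axes on a log scale, coloured by group. Gh1 and Prl were high together on sham replicate 2 at 24 h and 3VO replicate 2 at 3 d, and Avp and Oxt were high together on 3 arrays that stand apart from the other 12.

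The arrays high in Gh1 and Prl were not those high in Avp and Oxt. Over the 15 arrays, log2 Gh1 and log2 Prl correlated at r = 0.77 (permutation p = 0.00073, adjusted over 21 pairs of the 7 genes 0.00766) and rho = 0.65 (permutation p = 0.0114, adjusted 0.120). Without the 2 arrays farthest from the median of Gh1, r was 0.49 over 13 arrays, and after removal of the group means it was 0.61, so part of the relation rests on those 2 arrays. All permutations here moved arrays across groups, so their p-values also take in group differences that 2 genes share. For Avp and Oxt the arrays fall into separate clusters, so a pooled value rests largely on the arrays high in both. Over the 15 arrays their r was 0.79 and rho 0.65, and r was 0.87 after removal of the group means. Over the 12 arrays with Avp below 10000, their r was 0.16 and rho 0.31. That cut on Avp itself narrows its range, so the latter values cannot be set against those of Gh1 and Prl. Gh1 and Cga correlated at r = 0.65 (permutation p = 0.0096, adjusted 0.0671) and rho = 0.41 (permutation p = 0.127, adjusted 0.593), with r = 0.41 without the 2 arrays farthest from the median of Gh1. Without the sham array of conflicting label, over 14 arrays, r was 0.80 for Gh1 and Prl (permutation p = 0.00046, adjusted 0.00546) and 0.71 for Gh1 and Cga (permutation p = 0.00478, adjusted 0.0335).

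The first comparison asks how the occlusion differs from surgery alone after 24 h. None of the 7 hormone genes passed limma's test at an adjusted p under 0.05, the level that 0.0508% of all probe sets passed. At an unadjusted p under 0.05 there were 2 of 7 hormone genes and 1097 of 15737 probe sets. Gh1 had a log2 difference of -1.72 (SE 0.77, limma adjusted p = 0.699) and Prl of -2.72 (SE 0.88, adjusted p = 0.518), 3VO minus sham. For these genes the arrays of the groups did not overlap, which was also so for 15.4% of all probe sets. Summed markers of 4 other kinds of cell or tissue were also lower after 3VO without overlap: smooth muscle with 385751 to 549342 after 3VO against 630762 to 744195 after sham, leptomeninges with 699306 to 835640 against 860862 to 959608, erythroid cells with 241284 to 257698 against 307431 to 360003, and choroid plexus with 187805 to 242836 against 246280 to 379490. Igf2 made up most of the choroid plexus sum, with 133198 to 155751 after 3VO against 183393 to 223912 after sham. The median log2 excess of the choroid plexus markers did overlap, with -0.17, -0.43 and -0.23 after 3VO against -0.12, -0.48 and 0.75 after sham. The summed markers of all other kinds overlapped between the groups. Medians after 3VO were higher for neuron (175843 against 74659.2), astrocyte (489290 against 360620) and oligodendrocyte markers (347675 against 316067). For endothelium the median was lower (108103 against 131946). The part of any of these kinds of cell or tissue in the Gh1 and Prl differences was not tested. Without sham replicate 2, the log2 difference of Gh1 was -1.04 and that of Prl -1.81. For Avp it was -2.28 (SE 1.36, adjusted p = 0.796), and -0.47 without sham replicate 1. For Oxt it was -1.15 (SE 1.24, adjusted p = 0.904), and 0.44 without sham replicate 1, the opposite direction. Pomc differed by -0.97 (SE 0.59, adjusted p = 0.796), and by -0.45 without that sham array. Cga (-0.10, SE 0.39) and Tshb (-0.11, SE 0.43) had differences smaller than their errors.

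After 3 d the hormone genes again did not pass, with 0 of 7 at an adjusted p under 0.05 by limma and 0% of all probe sets. At an unadjusted p under 0.05 there were 3 hormone genes and 745 probe sets. Gh1 had a log2 difference of 2.46 (SE 0.77, limma adjusted p = 0.865), 3VO minus sham, and 1.31 without 3VO replicate 2. Prl had 1.97 (SE 0.88, limma adjusted p = 0.9986) and Cga 1.07 (SE 0.39, limma adjusted p = 0.997). Without the sham array whose treatment text describes the occlusion, the log2 difference was 2.22 for Gh1 (adjusted p = 0.746), 2.03 for Prl (adjusted p = 0.844) and 1.33 for Cga (adjusted p = 0.623). It was -0.85 for Avp, -0.47 for Oxt, -0.29 for Pomc and 0.0066 for Tshb, the last in the opposite direction. Avp differed by -1.13 (SE 1.36, adjusted p = 0.9986). It was the only hormone gene whose arrays did not overlap at 3 d, as did those of 9.09% of all probe sets. Oxt (-0.32, SE 1.24), Pomc (-0.24, SE 0.59) and Tshb (-0.19, SE 0.43) differed by less than their errors.

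**Figure D4:**
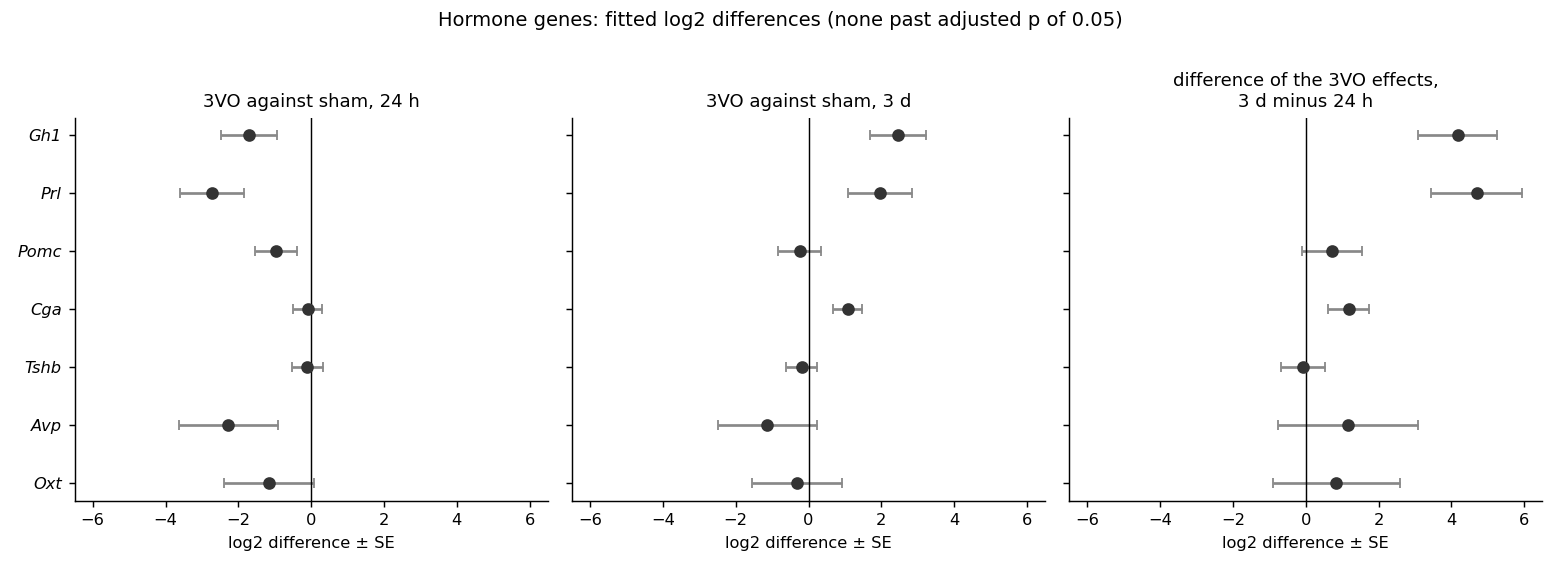
Fitted log2 differences with their standard errors for the 7 hormone genes, for 3VO minus sham at 24 h, at 3 d, and for the difference between these effects. Gh1 and Prl lie left of 0 at 24 h and right of 0 at 3 d, and no gene passed at an adjusted p under 0.05.

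The sign of the Gh1 and Prl differences was opposite at the later time, and the difference between the 3VO effects was tested directly. At 3 d minus 24 h it was 4.17 on the log2 scale for Gh1 (SE 1.09, limma adjusted p = 0.999) and 4.69 for Prl (SE 1.25, limma adjusted p = 0.999). No hormone gene and 0% of all probe sets passed, with 2 of 7 hormone genes, Gh1 and Prl, and 438 probe sets at an unadjusted p under 0.05. Without 3VO replicate 2 at 3 d the Gh1 value was 3.03, and without sham replicate 2 at 24 h the Prl value was 3.78. Cga had 1.18 (SE 0.55), Avp 1.15 (SE 1.92), Oxt 0.84 (SE 1.75), Pomc 0.72 (SE 0.83) and Tshb -0.08 (SE 0.61). Without the sham array of conflicting label, the value was 3.93 for Gh1, 4.76 for Prl, 1.43 for Cga, 1.43 for Avp, 0.68 for Oxt, 0.67 for Pomc and 0.12 for Tshb, the last in the opposite direction.

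Operated arteries were also set against intact ones, with the same 3 intact arrays in all 4 comparisons. The titles give all intact arrays higher array numbers than all operated arrays, so array number and surgery are confounded in these comparisons. After 3VO at 24 h, 0 of 7 hormone genes passed, against 0.184% of all probe sets, and none had arrays that did not overlap, against 13.8%. The Avp log2 difference was -2.65 (SE 1.36, limma adjusted p = 0.539), and -4.17 without intact replicate 3. After 3VO at 3 d, 0 of 7 passed, against 0.222%, and none was without overlap, against 15.4%. Here 4 hormone genes and 2032 probe sets had an unadjusted p under 0.05. These genes were Cga with 1.12 (SE 0.39, limma adjusted p = 0.258), Prl with 2.48 (SE 0.88, adjusted p = 0.267), Gh1 with 1.80 (SE 0.77, adjusted p = 0.347) and Avp with -3.17 (SE 1.36, adjusted p = 0.348). The Gh1 value was 0.66 without 3VO replicate 2.

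After sham surgery at 24 h, 0 of 7 hormone genes and 0% of all probe sets passed. Prl had a log2 difference of 2.12 against intact arteries (SE 0.88, limma adjusted p = 0.278), and 1.20 without sham replicate 2. Gh1 had 1.46 (SE 0.77, adjusted p = 0.395), and 0.79 without sham replicate 2. Gh1 was the only hormone gene whose arrays did not overlap, as did those of 17.4% of all probe sets. Avp, with 46151.6 on 1 sham array and over 10000 on 2 intact arrays, had -0.36 (SE 1.36), and -2.18 without sham replicate 1. After sham surgery at 3 d, 0 of 7 passed against 0%, and 0 were without overlap against 15.2%. The sizes ran from -2.04 for Avp (SE 1.36, adjusted p = 0.515) to 0.68 for Pomc (SE 0.59). Avp had -3.56 without intact replicate 3 (adjusted p = 0.151) and -1.21 without intact replicate 2, and Pomc had 1.07 without intact replicate 3 and 0.21 without intact replicate 1. Without the sham array of conflicting label, Avp had -2.32 and Pomc 0.73, and the other genes lay between -0.41 for Gh1 and 0.44 for Prl. At an unadjusted p under 0.05 there were 2364 probe sets after sham at 24 h, with Prl among them, and 2236 after sham at 3 d, with no hormone gene.

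Of 20 further genes of the anterior pituitary, 0 had their highest signal on 3VO replicate 2 at 3 d, against 6.81% of all genes, and 1 on sham replicate 2 at 24 h, against 3.13% of all genes. Pou1f1, the factor that drives growth hormone, prolactin and thyrotropin beta, gave 418.9 on 3VO replicate 2 at 3 d and 65 on sham replicate 2 at 24 h, the 2 arrays highest in Gh1 and Prl, within a range from 27 to 490.9 over all arrays. Its highest signal was on sham replicate 2 at 3 d, where Prl gave 148. Lhb and Fshb, the beta subunits of the gonadotropins, were highest on sham replicate 3 at 3 d (3552.3 and 2729.5), where Gh1 gave 725.9. Ghrhr, the receptor for growth hormone releasing hormone, was also highest there (3947.2), as was Tbx19, the corticotroph factor that activates Pomc (2682.5). That array held the highest signal of 14.5% of all genes. The median log2 excess over the 20 measured genes of the list of pituitary factors, receptors and further hormones was 0.05 on 3VO replicate 2 at 3 d and 0.03 on sham replicate 2 at 24 h. Summed over the 10 anterior pituitary markers, 5 of which are among the hormone genes described here, the signal was 9305 to 12656.4 after 3VO at 24 h, against 11663.5 to 23216.2 after sham at 24 h. It was 11407.8 to 40443.6 after 3VO at 3 d, against 12148.6 to 16836.8 after sham at 3 d, and 9195 to 13370.5 in intact arteries. The 2 highest sums largely restate the hormone genes. Gh1 alone gave 24590.8 of the 40443.6 on 3VO replicate 2 at 3 d. Gh1 and Prl gave 10117.9 and 3871.2 of the 23216.2 on sham replicate 2 at 24 h. The part of pituitary tissue in these signals was not tested.

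Of the 20 genes in the pituitary list, 0 passed in either direction at 24 h or at 3 d, with a median log2 difference of 0.19 at 24 h and -0.04 at 3 d (-0.15 without the sham array of conflicting label), against -0.02 and -0.01 over all probe sets. The neuropeptide galanin (Gal), made in lactotrophs and in hypothalamic neurons, had the smallest p, with 4347.1, 3703.2 and 3206.3 after 3VO at 24 h, against 1962.6, 1085.8 and 1323.7 after sham surgery (log2 1.39, SE 0.42, limma adjusted p = 0.469). Drd2, the dopamine receptor that restrains prolactin release, had a log2 difference of 1.07 at 24 h (SE 0.44, adjusted p = 0.660). Those of Ghsr, the ghrelin receptor, of Gnrhr, the gonadotropin releasing hormone receptor, and of the pituitary factor Gata2 were 0.69, -1.70 and -0.40 at 24 h, with adjusted p from 0.660 to 0.777.

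Hypothalamic releasing hormones and neuropeptides varied in their signal on sham replicate 1 at 24 h, the array highest in Avp and Oxt. The median log2 excess of the 20 measured genes was -0.50 there, 0.33 on intact replicate 1 and -0.08 on intact replicate 2. Crh, which drives Pomc in corticotrophs, gave 256.9, 16 and 261 on these 3 arrays, within a range of 16 to 650.9 over all. Trh, the releasing hormone of thyrotropin and prolactin, gave 760.8, 150 and 32, within a range of 32 to 803.8, and Pdyn, the opioid precursor made in vasopressin neurons, gave 531.9, 1584.7 and 515.9. The summed signal of the list on sham replicate 1 at 24 h, 39598.1, was the lowest of the 15 arrays. Penk (2822.4), Vip (821.8) and Grp (714.8) also had their lowest signal on that array. Going the other way, Th, the tyrosine hydroxylase of dopamine neurons, gave 3875.1 there against a median of 1776.6 over the 15 arrays. Hcrt, the orexin precursor, gave 1501.7 there against a median of 521.9. None of the 20 genes passed at 24 h or at 3 d, with medians of 0.33 and 0.18 (0.26 at 3 d without the sham array of conflicting label). Beside Gal, the smallest p values belonged to Nmu (-2.03 at 3 d, SE 0.80), Sst, which restrains growth hormone release (1.10 at 24 h, SE 0.44), Pmch (0.996 at 24 h, SE 0.42) and Gnrh1 (0.87 at 3 d, SE 0.40), with limma adjusted p from 0.638 to 0.999. Without that sham array Nmu had -2.34 and Gnrh1 1.02 at 3 d, with adjusted p of 0.734 and 0.807.

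The signal of neuron markers differed between the arrays high in Avp. Of the 13 neuron markers, 7 had their highest signal on intact replicate 1 and 4 on intact replicate 2, and their median log2 excess was 1.17 and 0.76 on these arrays. On sham replicate 1 at 24 h, the array highest in Avp and Oxt, it was -0.75, and none of the 13 was highest there. Over groups, the summed neuron markers ran from 106200 to 199648 after 3VO at 24 h against 70830 to 118098 after sham at 24 h, from 72006.9 to 171077 after 3VO at 3 d against 90296.9 to 108902 after sham at 3 d, and from 127279 to 320550 in intact arteries. The median log2 excess of choroid plexus markers was -0.12 on sham replicate 1 at 24 h and -0.30 on intact replicate 1, against 3.54 on intact replicate 2. The part of neurons or choroid plexus in the Avp and Oxt signals was not tested.

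**Figure D5:**
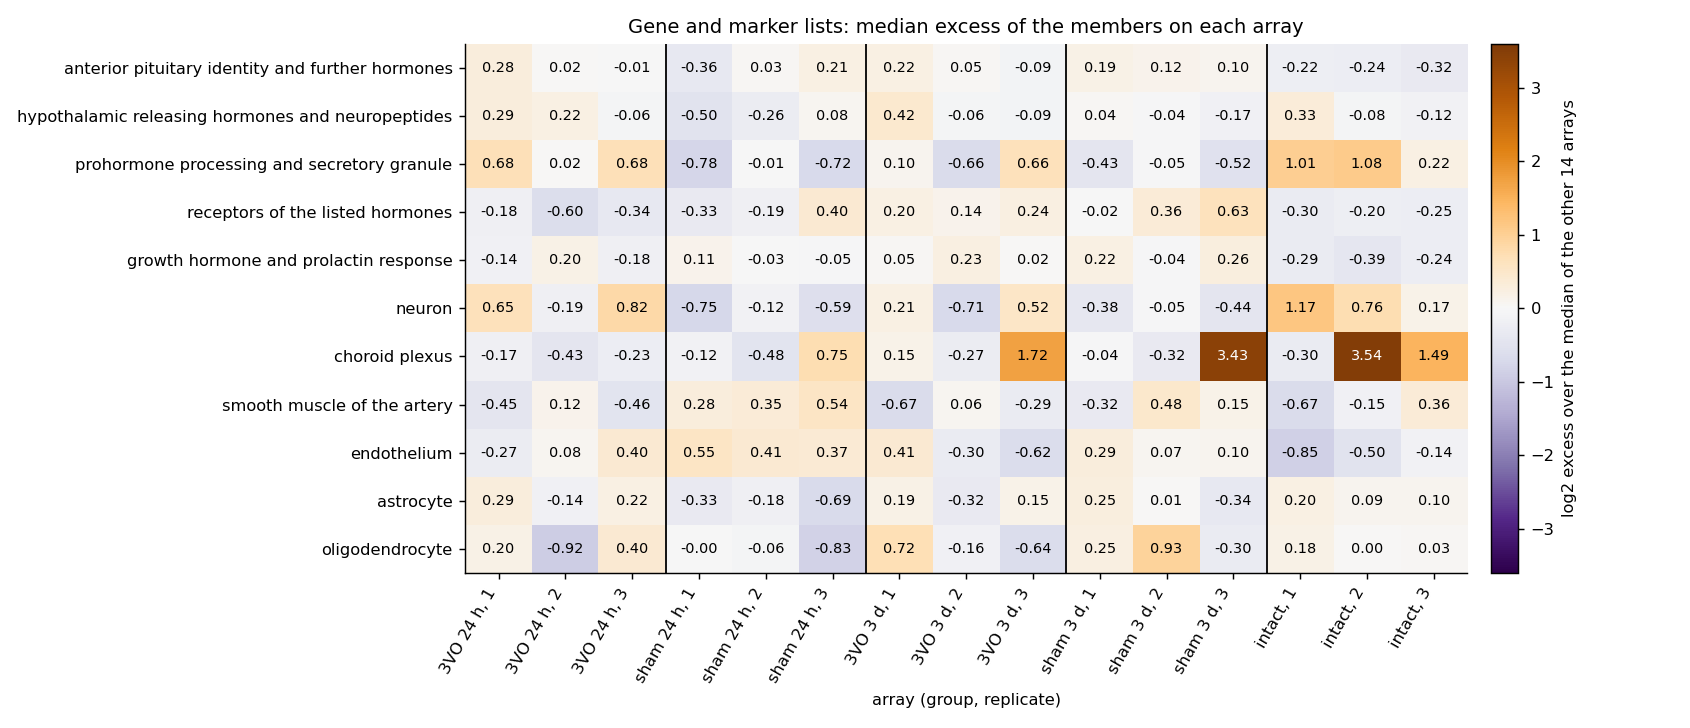
Median log2 excess of gene and marker lists on each array, relative to the median of the other 14 arrays, with arrays in columns and lists in rows. Neuron markers and granule genes were high on intact replicates 1 and 2 and low on sham replicate 1 at 24 h, and choroid plexus markers were high on sham replicate 3 at 3 d and intact replicate 2.

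Genes of prohormone processing and of the secretory granule, which neurons and endocrine cells share, were highest on the arrays richest in neuron markers, a list with which they share 1 gene, Snap25. Their median log2 excess over 18 genes was -0.78 on sham replicate 1 at 24 h, -0.01 on sham replicate 2 at 24 h and -0.66 on 3VO replicate 2 at 3 d, the arrays highest in Avp, Prl and Gh1. At 24 h, 15 of the 18 had a positive log2 difference, 3VO minus sham, against 47.3% of all probe sets, with a median of 0.99. An unadjusted p under 0.05 was found for 9 of them, against 6.97% of all probe sets, and 0 passed. Chga, chromogranin A of dense core granules, gave 2216.5, 1009.8 and 1676.6 after 3VO, against 139, 770.8 and 69 after sham surgery at 24 h (log2 2.85, SE 0.96, limma adjusted p = 0.539). Scg2, secretogranin II, gave 15034.9, 7600.4 and 12387.3 after 3VO, against 3268.3, 7002.6 and 3098.4 after sham surgery (log2 1.44, SE 0.45, adjusted p = 0.506). Each of the 3VO arrays was above all sham arrays for both genes, which were named for their small p. At 24 h the arrays did not overlap for 15.4% of all probe sets. Ptprn, Ptprn2 and Rab3a, of the granule membrane, had log2 differences of 1.20, 1.08 and 1.13 with adjusted p from 0.450 to 0.541. At 3 d the median was 0.29, or 0.25 without the sham array of conflicting label, and 0 of 18 passed.

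The receptors of these hormones and the genes that answer growth hormone and prolactin were set beside the hormone genes. None of the 11 receptors passed at 24 h or at 3 d, with median log2 differences of -0.13 and -0.23 (-0.48 at 3 d without the sham array of conflicting label). The prolactin receptor Prlr gave 13951.3 on sham replicate 3 at 3 d and 16031 on intact replicate 2, the 2 arrays highest in choroid plexus markers, of which Prlr itself is 1, and at most 2097.6 on the other arrays. The Prl signal on these arrays was 704.9 and 617.9. Ghr, the growth hormone receptor, gave 950.8, 1448.7 and 1136.8 after 3VO at 3 d, against 582.9, 571.9 and 626.9 after sham surgery, without overlap (log2 0.95, SE 0.31, limma adjusted p = 0.917, and 0.94 with adjusted p = 0.715 without the first of these sham arrays, whose labels conflict). Avpr1a, the vasopressin receptor of vascular smooth muscle, gave 536.9, 507.9 and 486.9 after 3VO at 24 h, against 971.8, 1139.8 and 1345.7 after sham surgery, without overlap (log2 -1.14, SE 0.38, adjusted p = 0.534). Ghr and Avpr1a were named for their small p, and the arrays did not overlap for 9.09% of all probe sets at 3 d and 15.4% at 24 h. The opioid receptor Oprm1 had a log2 difference of -1.42 at 24 h (SE 0.44, adjusted p = 0.505), Mc5r of -0.59 at 3 d (-0.71 without that sham array) and Lhcgr of -0.61 at 24 h. The oxytocin receptor Oxtr stayed between 50 and 215.

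None of the 11 response genes passed at 24 h or at 3 d, with median log2 differences of -0.16 and -0.11 (-0.07 at 3 d without the sham array of conflicting label). Igf1, the growth factor induced by growth hormone in liver and other tissues, had the smallest p, with a log2 difference of -0.52 at 3 d (SE 0.15, limma adjusted p = 0.747, and -0.47 with adjusted p = 0.709 without that array) and group means of 12917 after 3VO against 18444 after sham surgery. On 3VO replicate 2 at 3 d, the array with the highest Gh1, the median log2 excess of the list was 0.23, and on sham replicate 2 at 24 h, the array with the highest Prl, it was -0.03. Pim1 (-1.30), Igfbp3 (0.57), Jak2 (0.50) and Socs3 (0.37), the others with the smallest p, had adjusted p from 0.668 to 0.799 at 24 h.

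Genes with a pattern like a hormone gene over the 15 arrays were sought among 5160 others by Pearson's r of log2(signal + 16), as a description. The highest of so many correlations over 15 arrays are large in part through their selection. What unrelated genes would reach was not tested. For Avp the highest were Dgkd (0.72), Nrn1l (0.64) and Lrrc20 (0.64), and for Oxt Nup210 (0.72), Lrrc20 (0.72) and Mgll (0.69). Lrrc20 gave its highest signal, 2010.5, on sham replicate 1 at 24 h, against a median of 284.9. For Gh1 the highest were Gpr26 (0.70), Tex19.2 (0.67) and She (0.67), and for Prl Ccdc66 (0.76), She (0.73) and Col26a1 (0.72). Cga was most like Ptpn12 (0.83) and Kcnk6 (0.82), Tshb like Stard9 (0.79) and Bfsp1 (0.74), and Pomc like Fzd2 (0.87) and Ppp1r15a (0.87). Over all 15 arrays, Gh1 and Prl resembled each other (0.77) slightly more than either resembled any of these genes. This order did not hold after removal of the group means. There r was 0.61 for Gh1 and Prl, against 0.75 for Prl and Col26a1 and 0.64 for Gh1 and She. It was lower for Gh1 with Gpr26 (0.56) and Tex19.2 (0.38), and for Prl with Ccdc66 (0.38) and She (0.53).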

How the data were processed

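Per the design text and the submitters' processing notes, the authors made the deposited values in GCOS (version not given in the sources used here) and scaled each array to a global intensity of 500. The deposited intensity has a mean, after trimming 2% at each end, of 5000 on all 15 arrays, 10 times that target. It was left so and analysed as log2(signal + 16). The test covered 15737 of 15923 probe sets, those reaching 100 on 3 or more arrays, without the 57 controls. limma 3.58.1 in R 4.3.3 fitted 5 group means to all 15 arrays (eBayes with a variance trend, 10 residual and 4.83 prior degrees of freedom). Tests were 2-sided, with Benjamini-Hochberg adjustment over all probe sets within a comparison. The added 16 draws the log2 values of dim genes closer together. How background and noise move the differences of such genes was not tested. The fit was tested on simulated data.

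The platform table, with RefSeq for newer symbols, gave 1 gene for 12783 probe sets, several for 312 and none for 2771. In each list the 5 genes with the smallest unadjusted p for 3VO against sham were named; others were named with their values known. Likeness was ranked among genes with a log2 range of at least 1 and a highest signal of at least 1000. Correlation p-values used 100000 permutations. The hormone genes and the lists were chosen with earlier results of these data known. Promoters are RefSeq sequences of GRCr8, found for 6 of 7 genes. Python 3.11.15 with pandas 2.3.3, scipy 1.17.1 and matplotlib 3.10.9 was used.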

Additional observations from a re-analysis of the deposited data

How the results depend on the processing

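No hormone gene passed in any of the 189 fits over 7 comparisons, with 11 other settings and each of the 15 arrays left out in turn, and the lowest adjusted p was 0.0773, for Avp in 3VO at 3 d against intact without intact replicate 3. Of the 49 log2 differences of the hormone genes, 18 reversed somewhere, and the cause was not tested. With array weights, Tshb had 0.0799 in the difference of the 3VO effects and Oxt -0.34 in sham at 24 h against intact. With the array number as a covariate, Cga had -0.63 in 3VO at 24 h, -0.36 in sham at 24 h and -0.71 in sham at 3 d against intact, and Oxt had -0.71 in sham at 24 h against intact. All intact arrays bear higher numbers than all operated arrays, so this covariate is confounded with surgery in the comparisons with intact. Cga in sham at 3 d against intact had -0.12 with quantile normalization and -0.0231 with median centring. With each array left out, 3VO against sham at 24 h ranged from -2.32 to 0.44 for Oxt, from -0.33 to 0.22 for Cga and from -0.39 to 0.18 for Tshb. For 3 d the range was -0.65 to 0.0735 for Oxt and from -0.58 to 0.0672 for Tshb. The difference of the effects ranged from -0.76 to 2.01 for Oxt, from -0.47 to 0.20 for Tshb and from -0.66 to 2.40 for Avp. 3VO at 24 h against intact ranged from -0.73 to 0.13 for Pomc and from -0.96 to 0.0546 for Prl, and 3VO at 3 d against intact from -1.94 to 0.38 for Oxt and from -0.0345 to 0.82 for Pomc. Sham at 24 h against intact ranged from -1.25 to 1.52 for Oxt and from -2.18 to 0.88 for Avp, and sham at 3 d against intact from -1.62 to 0.70 for Oxt and from -0.21 to 0.28 for Cga. Gh1 kept its direction in all 7 comparisons. With a minimum of 1000, Pomc was not tested. The calls over all probe sets moved more: the 8 at 24 h ranged from 1 (without 3VO replicate 2) to 25 (array weights), with 2 without sham replicate 2 or 3, 5 without sham replicate 1 and 13 without intact replicate 1, the 0 at 3 d from 0 to 1, the 29 in 3VO at 24 h against intact from 1 to 227, the 35 in 3VO at 3 d against intact from 0 to 258, the 0 in sham at 24 h against intact from 0 to 818 and the 0 in sham at 3 d against intact from 0 to 184. The 4 highest counts against intact came without intact replicate 3. For the lists and the correlations, leaving out the sham array of conflicting label was chosen after seeing the data. No paired analysis was possible because the replicate numbers only follow the order of the accessions. The number of arrays and pools limits every comparison, and the pools give no spread between rats.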

Other observations

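Pcsk2, a convertase that cuts prohormones in neurons and endocrine cells, was picked for its values. It gave 1616.7, 325.9 and 1814.6 after 3VO at 24 h, against 78, 858.8 and 82 after sham surgery at 24 h. At 3 d, Pcsk2 gave 42, 197 and 1034.8 after 3VO, against 37, 129 and 106 after sham surgery, and intact arteries gave 1809.6, 1804.7 and 105. The median log2 excess of the neuron markers was 0.65, 0.82, 0.52, 1.17 and 0.76 on the 5 arrays with Pcsk2 above 1000, and at most 0.21 on the other 10. This split depends on the cut: sham replicate 2 at 24 h, with Pcsk2 at 858.8, had -0.12. Replicate 1 of 3VO at 3 d, with Pcsk2 at 42, had 0.21. Trhr, the receptor of thyrotropin releasing hormone, also picked for its values, gave 6946.6, 4099.1 and 1935.6 after 3VO at 24 h, against 2132.5, 3294.3 and 2913.4 after sham surgery at 24 h, so that the groups overlapped.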
